A study of Mus musculus with 9 samples.

Results

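Expression of 6 genes of the Notch pathway, the ligand gene Jag1, the receptor gene Notch2, the transcriptional repressor genes Hes1, Hes5 and Hes6, and the ligand-like gene Dlk1, was described in RNA-sequencing libraries of embryonic mouse lenses. They were chosen by symbol from 7738 genes with a value in at least 1 group. Every group was lens tissue collected at 15.5 days post conception, with 3 biological replicates per group and 30 pooled lenses per replicate. The conditional knockout (cKO) lenses were of mixed strain and had the genotype Sip1 flox/flox with MLR10Cre, a transgene that expresses Cre recombinase in lens cells. Sip1 is the zinc finger transcription factor encoded by Zeb2. The mixed wild type (WT) lenses were of mixed strain too, carried the same floxed Sip1 alleles and had no Cre. The inbred WT lenses came from strain C57Bl/6<har>, for which the labels give no floxed allele and no Cre.

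Notch signalling passes between touching cells. A Jagged or Delta ligand on the surface of a cell binds a Notch receptor on its neighbour, the receptor is cut by an ADAM protease and then by the gamma-secretase complex, and the freed intracellular part joins the DNA-binding protein RBPJ in the nucleus. There it switches on repressor genes of the Hes and Hey families. In the mouse lens, Notch signalling is known to keep cells of the anterior epithelium dividing, and Jag1 is known to be needed for the formation of fibre cells.

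Not every member had a value in every group. The inbred WT tables held 7676 genes, among them 5 of the 6 members (all but Dlk1), with no mean under 2 RPKM (reads per kilobase of exon, scaled to the mapped reads of the library). The cKO and mixed WT tables held 190 genes, among them Hes6 and Dlk1 only. Only Hes6 therefore had values in all 9 libraries. By the deposited normalized values, each of these 190 genes had cKO and mixed WT means at least 2.50-fold apart, so the list holds only genes that already differed between the very libraries compared here. A missing value for Jag1, Notch2, Hes1 or Hes5 in those groups does not show that the gene was low there or that it did not differ. Depth in megareads, recovered from the whole-read steps of the values, was 25.9 to 27.4 in cKO, 38.7 to 44.1 in mixed WT and 14.1 to 16.7 in inbred WT libraries. Of 16 lens marker genes 15 were listed in inbred WT, with a median of 1140 RPKM, and none was listed in the other groups. Markers of other cells were listed in inbred WT too. Of 10 endothelial genes 6 were listed, with means of 2.19 to 4.88 RPKM. The means of Notch2 and Hes5 fell in that range, as did those of many listed genes. Tie1, the lowest of the 6, was higher than 2.51% of all listed genes and Cdh5, the highest, than 32.6%. A shared level therefore does not point to a shared cell type. Also listed were 6 of 10 red cell genes, Pdgfra of periocular mesenchyme at 22.5 RPKM and the pigment cell gene Mitf at 3.05 RPKM. None of 10 neuronal genes was listed in inbred WT. The part of such cells in the levels of the members was not tested. Zeb2, at 5.16, 5.96 and 6.31 RPKM in inbred WT, was outside the 190 genes, so the knockout could not be checked at its target.

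Jag1 was by far the most abundant member in inbred WT lenses. Jag1, the membrane-bound ligand, was at 60.7, 66.0 and 73.1 RPKM in replicates 1, 2 and 3 (mean 66.6 ± 6.23, SD, n = 3), behind which stood 5904, 6272 and 6026 reads. It was higher than 93.7% of the listed genes, whose median was 7.65 RPKM. The other canonical ligand genes, Dll1, Dll3, Dll4 and Jag2, were not listed, nor was the non-canonical Dlk2. Dner, a non-canonical ligand gene best known from neurons, was listed at 7.83 ± 0.57 RPKM (SD, n = 3).

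Notch2, the receptor gene among the members, was much scarcer per length than Jag1. Notch2 was at 3.53, 4.15 and 4.93 RPKM (mean 4.2 ± 0.70, SD, n = 3), from 618, 710 and 732 reads. It was higher than 26.0% of the listed genes. Of the other receptor genes Notch3 was at 6.67 ± 1.45 RPKM and Notch1 at 2.56 ± 0.68 RPKM (SD, n = 3), while Notch4 was not listed. The ranges of Notch2 and Notch3 did not overlap, with 5.60 RPKM the lowest Notch3 value, and neither did those of Notch2 and Notch1, whose highest value was 3.33 RPKM. In GENCODE M21, 5.02% of the Notch2 exon bases are shared with Gm42820 on the same strand.

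The Hes genes, which encode basic helix-loop-helix repressors, all lay below the median of the listed genes. Hes6 was higher than 47.2% of them, Hes1 than 40.6% and Hes5 than 17.6%. Hes1, a direct target of the cleaved receptor in many tissues, was at 5.91, 6.32 and 5.80 RPKM in inbred WT (mean 6.01 ± 0.28, SD, n = 3), from 167 to 210 reads. Hes5, the other classical target, was at 3.47, 2.93 and 3.68 RPKM (mean 3.36 ± 0.39, SD, n = 3), from only 65 to 79 reads, so that counting error alone was 11.3% to 12.4% of each value. Hes6, which in neuronal cells is known to oppose Hes1 rather than to relay the Notch signal, was at 6.76, 7.13 and 7.43 RPKM (mean 7.11 ± 0.34, SD, n = 3). The value of Hes5 carries a further uncertainty. In the GENCODE M21 annotation 31.8% of its exon bases lie under an exon of Gm20421 on the opposite strand, and the library kit named in the labels does not mark strand, so that reads of the pair cannot be told apart.

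Ordered by level, the members were Jag1, Hes6, Hes1, Notch2 and Hes5. Jag1 stood 8.98 to 9.84 times above Hes6 within a library. Hes6 was above Hes1 by 1.13 to 1.28 times in all 3 libraries, and their ranges did not overlap. Their reads were close, however, at 204, 210 and 190 for Hes6 and 201, 210 and 167 for Hes1. The order of these 2 genes thus rests largely on the exon lengths used, 1808 and 2037 bases. Hes1 and Notch2 were also apart, at 1.18 to 1.68 times. Notch2 and Hes5, the last neighbours, overlapped between libraries, although Notch2 was the higher in each of the 3, by 1.01 to 1.42 times.

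**Figure D1:**
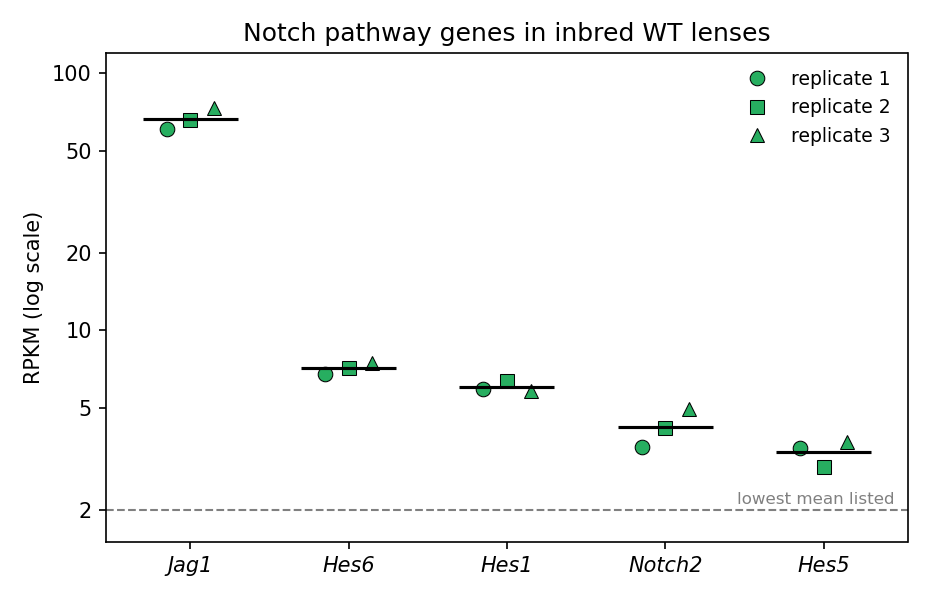
RPKM of the 5 listed members in inbred WT lenses on a log scale, with a point for each of the 3 libraries, a bar for their mean and a dashed line at 2 RPKM, the lowest mean in the list. Jag1 lies between 60.7 and 73.1 RPKM, all other members between 2.93 and 7.43 RPKM, and the points of Notch2 and Hes5 overlap.

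The rest of the pathway was described from a list of 59 genes in 8 roles, which includes the members. Of these 37 were listed in inbred WT, with a median of 6.67 RPKM, close to the 7.65 RPKM of all listed genes. Of 10 genes for cutting the receptor 8 were listed, with a median of 22.7 RPKM. Psenen, a gamma-secretase subunit gene, was at 70.7 ± 3.56 RPKM and Adam10, the gene of the protease that makes the first ligand-dependent cut, at 55.9 ± 4.11 RPKM (SD, n = 3), the highest levels in the list beside Jag1. The gamma-secretase genes Ncstn and Aph1a were at 28.8 and 20.7 RPKM, and Psen2 at 3.98 RPKM.

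Of 5 glycosylation genes, whose enzymes modify the receptor, 4 were listed, led by Lfng at 17.0 ± 0.80 RPKM (SD, n = 3), a Fringe enzyme gene that alters which ligands a receptor responds to. Of 12 endocytosis and turnover genes 7 were listed. Mib1, the ubiquitin ligase gene needed in cells that present ligand, was at 14.2 RPKM, and Numb, an inhibitor of the receptor, was the lowest of the 37 at 2.11 RPKM. Of 10 genes of the nuclear complex 8 were listed. Rbpj, through which the receptor reaches DNA, was at only 3.42 ± 0.31 RPKM (SD, n = 3), whereas the corepressor gene Ncor1 was at 16.8 RPKM. Of 10 Hes, Hey and feedback genes 5 were listed. Hey1, another repressor target, led them at 18.6 ± 0.75 RPKM (SD, n = 3), above every Hes gene in every library, and Nrarp, a feedback inhibitor, was at 5.95 RPKM, next to Hes1.

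**Figure D2:**
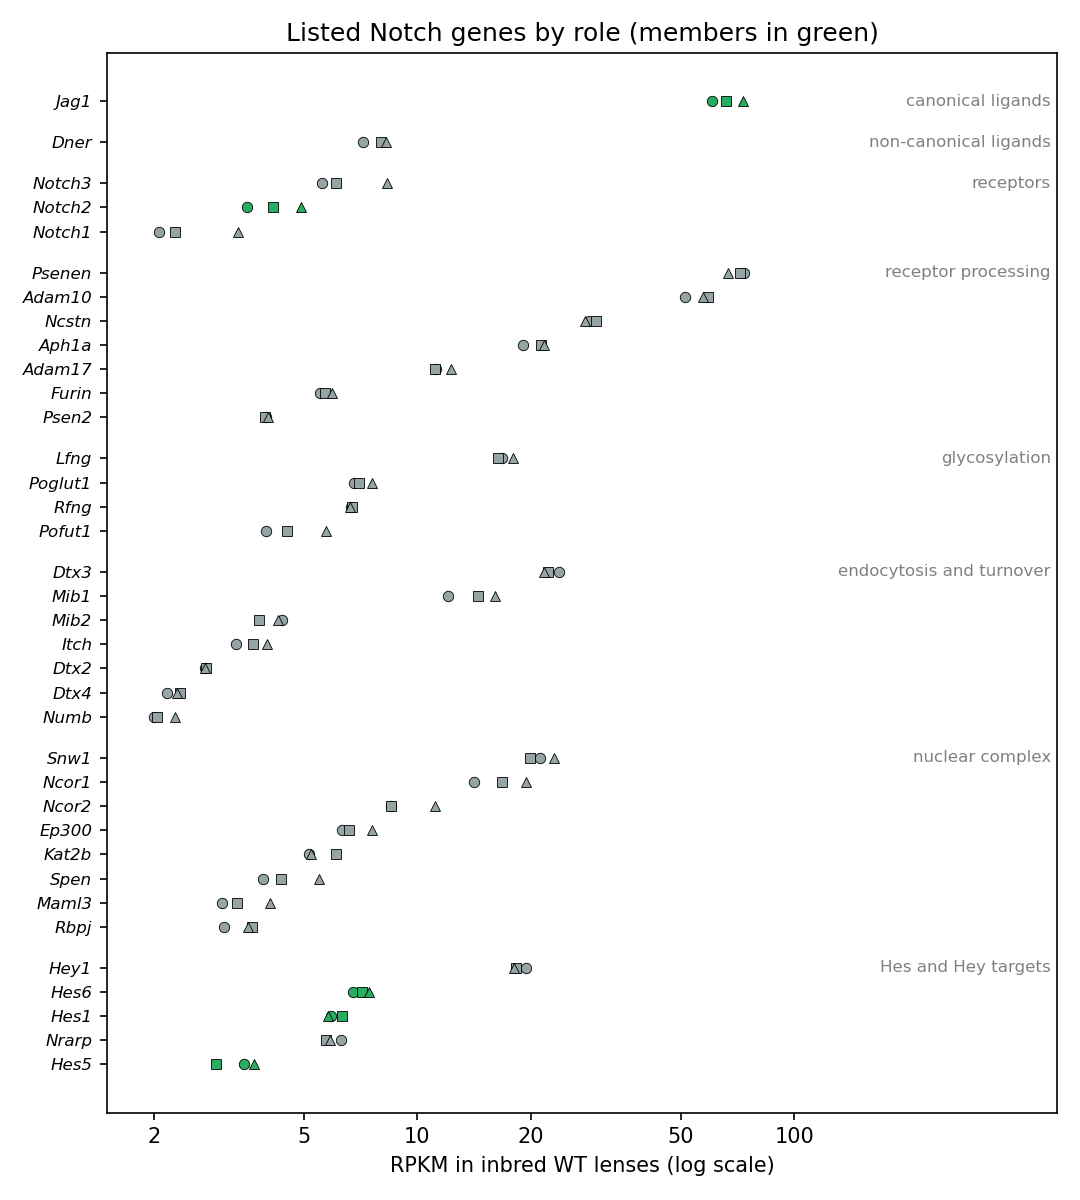
RPKM of 36 of the 37 listed genes of the Notch list in inbred WT lenses on a log scale, grouped by role, with circles, squares and triangles for replicates 1, 2 and 3 and the members in green. Jag1, Psenen and Adam10 stand at the top with means of 55.9 to 70.7 RPKM, while all 3 receptor genes and all 3 Hes genes lie below 10 RPKM.

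The spread between the inbred libraries differed among the members. Notch2 varied most, with a coefficient of variation of 16.7%, against 11.7% for Hes5, 9.35% for Jag1, 4.72% for Hes6 and 4.61% for Hes1, while the median over all listed genes was 7.21%. Notch1, Notch2 and Notch3 were all highest in replicate 3, at 1.61, 1.40 and 1.49 times replicate 1, and Jag1 was at 1.2 times. The shorter Hes6 and Hes5 were also highest in replicate 3, at 1.10 and 1.06 times replicate 1, whereas Hes1 was at 0.98 times and highest in replicate 2. Exon length moved with this pattern over all genes. Replicate 3 was the highest library for 76.2% of genes in the longest of 4 equal groups by exon length and for 25.9% in the shortest, with median ratios of replicate 3 to replicate 1 of 1.16 in the longest and 0.95 in the shortest. Notch2, with 10506 exon bases, and Jag1, with 5827, are long genes, and Hes1, Hes5 and Hes6, with 1363 to 2037 bases, are short. Hes5, the shortest, varied more than Jag1 and thus stood outside an order by length. Its counting error, 11.3% to 12.4% of a value, was about as large as its coefficient of variation, while that of Jag1 was at most 1.30%. The part of exon length and of the library in the spread of the receptor genes was not tested.

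**Figure D3:**
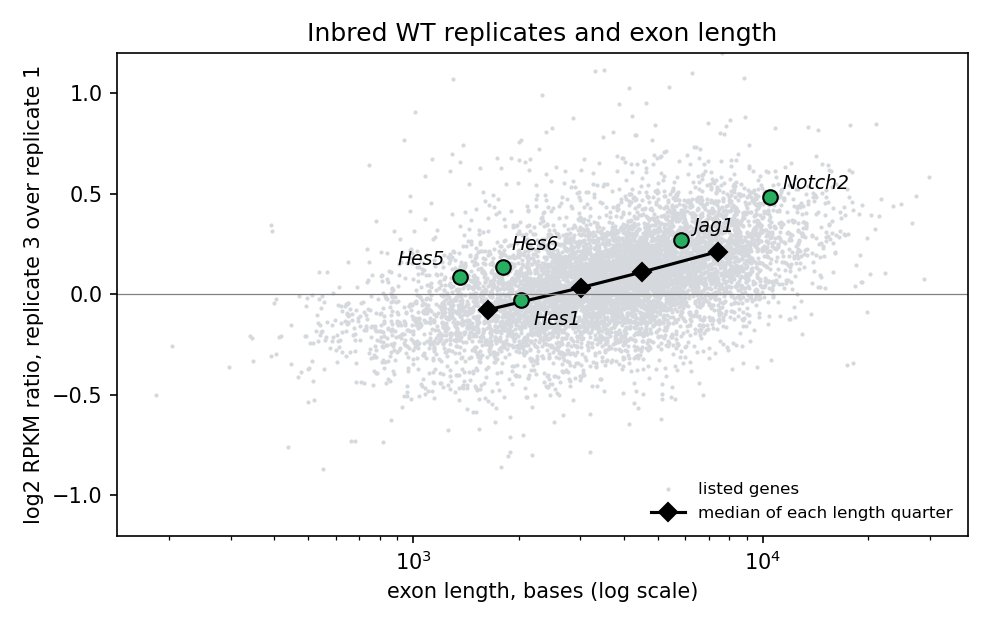
Log2 ratio of RPKM in replicate 3 over replicate 1 of inbred WT against exon length on a log scale, with all listed genes in grey except 8 beyond the axis range, the medians of 4 equal groups by length in black and the 5 listed members in green. The group medians climb with length, and Notch2, the longest member, has the highest ratio of the members at 0.48.

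The sequence before the transcript starts of Hes6 and Dlk1, the members with values in cKO lenses, is shown with that of Hes5, a classical Notch target. Windows of 250 bases were taken from RefSeq (GRCm38.p6), where 5 of the 6 members were matched. Each reads 5′ to 3′ on the gene's strand. Capitals mark CACCTG (or its reverse complement CAGGTG), the E-box word bound by ZEB factors such as Sip1, and TGGGAA (or TTCCCA), the core word of RBPJ sites. No copies overlapped.
Hes6, upstream start, chr1:91414039-91414288, minus strand: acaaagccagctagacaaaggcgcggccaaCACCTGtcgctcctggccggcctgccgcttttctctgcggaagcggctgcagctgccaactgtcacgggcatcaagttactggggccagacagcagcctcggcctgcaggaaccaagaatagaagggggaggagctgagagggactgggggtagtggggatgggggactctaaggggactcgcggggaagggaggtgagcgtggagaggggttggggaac
Hes6, downstream start, chr1:91413223-91413472, minus strand: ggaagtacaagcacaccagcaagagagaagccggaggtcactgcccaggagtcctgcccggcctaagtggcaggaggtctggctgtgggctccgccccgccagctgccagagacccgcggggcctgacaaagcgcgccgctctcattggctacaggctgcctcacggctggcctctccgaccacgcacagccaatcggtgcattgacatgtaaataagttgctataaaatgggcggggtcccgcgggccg
Dlk1, chr12:109452573-109452822, plus strand: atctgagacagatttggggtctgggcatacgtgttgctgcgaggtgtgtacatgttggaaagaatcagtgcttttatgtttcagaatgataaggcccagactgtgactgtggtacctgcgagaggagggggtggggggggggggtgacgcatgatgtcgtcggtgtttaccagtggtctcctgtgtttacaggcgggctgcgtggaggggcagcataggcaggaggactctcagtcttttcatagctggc
Hes5, chr4:154960673-154960922, plus strand: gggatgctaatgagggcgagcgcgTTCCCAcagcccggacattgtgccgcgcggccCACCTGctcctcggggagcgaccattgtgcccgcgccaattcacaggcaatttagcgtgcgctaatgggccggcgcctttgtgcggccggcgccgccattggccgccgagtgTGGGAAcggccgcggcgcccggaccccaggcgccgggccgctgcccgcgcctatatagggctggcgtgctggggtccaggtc

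The window of the upstream Hes6 start held 1 E-box word, which began 220 bases before the start, and no RBPJ word. The window of the downstream start, which lies in an intron of the longer transcript, held neither, nor did the Dlk1 window or those of Jag1 and Notch2. Hes5 held 2 RBPJ words, beginning 226 and 82 bases before its start, and 1 E-box word at 194 bases. Over all 32851 windows of the same length 17.2% held the E-box word and 21.6% the RBPJ word, so a single copy is common. These are matches of letters and show neither binding nor its absence. In GENCODE M21 no exon overlapped the Hes6 and Dlk1 windows, and an exon of Gm20421 on the opposite strand overlapped that of Hes5.

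Loss of Sip1 was addressed by the comparison of cKO with mixed WT lenses, which are both of mixed strain with floxed alleles but differ in Cre and in depth, which cannot be told apart from the genotype. Hes6 was at 23.4, 21.0 and 24.4 RPKM in cKO libraries, against 7.59, 7.60 and 6.85 RPKM in mixed WT libraries. The lowest cKO library was thus well above the highest mixed WT library for this gene. The means were 22.9 ± 1.76 RPKM in cKO and 7.35 ± 0.43 RPKM in mixed WT (SD, n = 3 each), a rise of 3.12 times (log2 difference 1.58 with SE 0.09, Benjamini-Hochberg adjusted p = 1.96e-08 by limma). Log2 differences are of log2(RPKM + 0.5), and folds are ratios of mean RPKM. At 982 to 1159 reads in cKO and 531 to 593 in mixed WT, counting error was at most 4.34% of a Hes6 value.

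Dlk1 encodes a membrane protein with the epidermal growth factor repeats of Notch ligands but without the domain through which canonical ligands bind the receptor. It is an imprinted gene, expressed from the paternal allele, and is known to hold back the differentiation of fat cells. Its window, shown above, held neither word. Dlk1 was at 10.4, 8.06 and 13.6 RPKM in cKO libraries, against 0.22, 0.22 and 0.37 RPKM in mixed WT libraries. It was near the bottom of the 190 genes in mixed WT, at rank 174 by mean level, and at rank 81 in cKO. The means were 10.7 ± 2.76 RPKM in cKO and 0.27 ± 0.09 RPKM in mixed WT (SD, n = 3 each), a rise of 39.1 times (log2 difference 3.83 with SE 0.17, adjusted p = 2.70e-09 by limma). The authors' normalized expression values, on their own scale, were 1456, 1154 and 1929 in cKO against 36.2, 37.9 and 63.4 in mixed WT.

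The mixed WT level of Dlk1 was low but rested on reads. No exon length was listed for it, and a length of 5657 bases brought its values in all 6 libraries to whole reads, which equals the merged exons of Dlk1 in GENCODE M21. With that length Dlk1 had 1610, 1179 and 1993 reads in cKO and 49, 54 and 93 in mixed WT. The same search gave the listed 1808 bases for Hes6. Dlk1 was also the more variable of the pair, with coefficients of variation of 25.9% in cKO and 31.9% in mixed WT, against 7.66% in cKO and 5.86% in mixed WT for Hes6. Per length, Hes6 exceeded Dlk1 by 1.8 to 2.61 times in the cKO libraries and by 18.4 to 34.4 times in the mixed WT libraries.

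**Figure D4:**
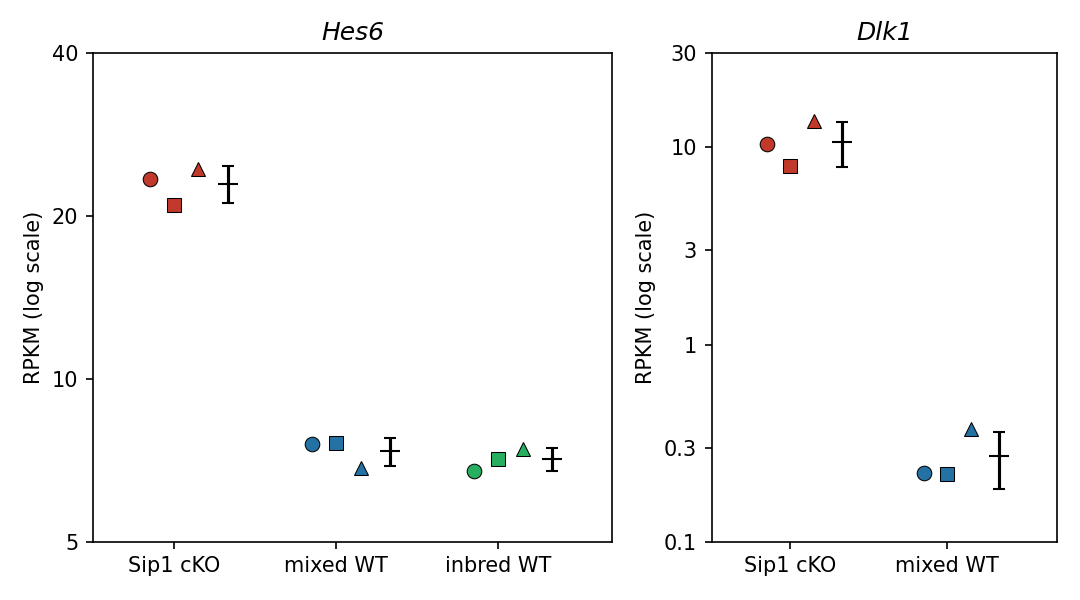
RPKM on log scales for Hes6 in cKO, mixed WT and inbred WT lenses and for Dlk1 in cKO and mixed WT lenses, with circles, squares and triangles for replicates 1, 2 and 3 and the mean ± SD beside them. Both genes are higher in every cKO library than in any other, and the mixed and inbred WT points of Hes6 overlap.

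Both of these calls must be read against the list they come from. Limma called 99.5% of the 190 genes, 54.2% as higher and 45.3% as lower in cKO, and in 100% of them the libraries of the groups did not overlap. That Hes6 and Dlk1 were called, rose and did not overlap is therefore no sign of anything particular to the Notch pathway, whose other 57 list genes have no values in these groups. Hes6 was close to the lowest difference in the list, with a 2.57-fold difference of normalized values, and Dlk1 was far from it at 33-fold. By log2 fold change of RPKM + 0.5 Dlk1 was the 8th largest rise of the 190 and Hes6 the 79th, and by the ratio of mean RPKM, with no pseudocount, they were the 14th and the 93rd. Of the 62 genes outside the inbred list, as Dlk1 is, 60 were higher in cKO. In all 190 genes the higher group mean was at least 2.14 RPKM, and the inbred list began at 2 RPKM. A gene low in wild type lenses could thus enter the 190 only by being high in cKO. The count of 60 therefore largely follows from how the lists were made.

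**Figure D5:**
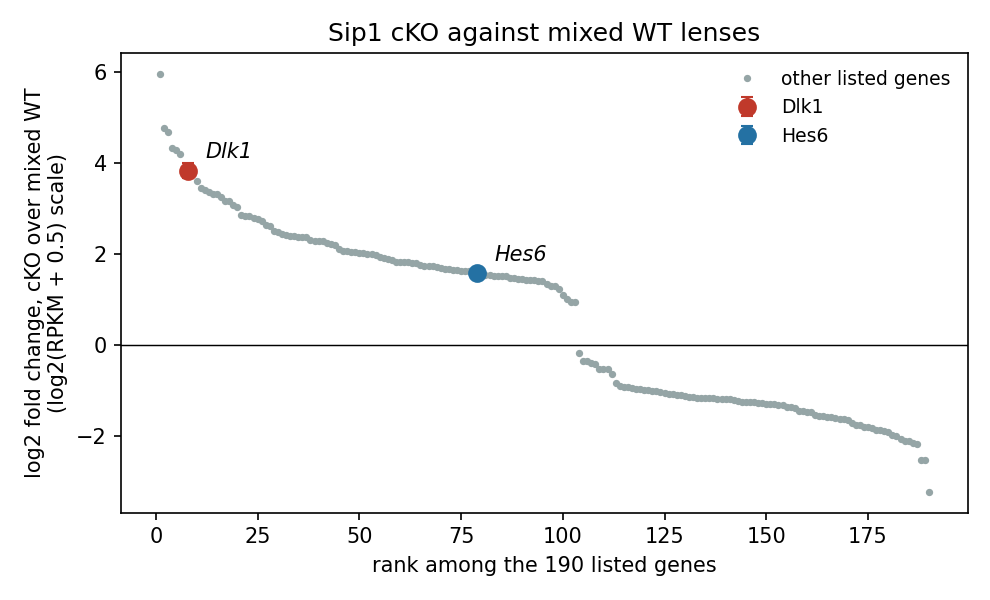
Log2 fold change of cKO over mixed WT lenses, on the log2(RPKM + 0.5) scale, for the 190 listed genes in order of size, with Dlk1 and Hes6 marked and bars for their standard error. Dlk1 is near the top at 3.83 and Hes6, at 1.58, is the 79th of the 103 genes called as higher in cKO.

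The size of the Hes6 rise depended on scaling. The library medians over the 190 genes were 0.88 higher in cKO than in mixed WT on the log2 scale, and with each library centred on its median the Hes6 log2 fold change was 0.69 (limma adjusted p = 4.89e-05). Dlk1 was at 2.95 under the same setting. Over all alternatives Hes6 ranged between 0.69 and 1.64 and Dlk1 between 2.74 and 4.85, each called in every one, with limma adjusted p at most 4.89e-05 for Hes6 and 5.71e-05 for Dlk1. The list was chosen for a difference between these libraries, and 171 of 190 genes stayed called under quantile normalization and 186 under median centring. A call under every setting is thus no support for either gene. Centring on genes so chosen also cannot separate library scaling from the differences themselves. In bulk lenses, more RNA per cell and more cells of a type that holds the RNA cannot be told apart.

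Some markers of other cells were among the 190 genes, for 100% of which the cKO and mixed WT libraries did not overlap. A marker with no difference between these groups would not be in that list. None of 15 retinal and proneural genes was listed in any group. Of 10 neuronal genes only Elavl4 was listed, at 0.39 to 0.67 RPKM in cKO and 2.69 to 3.18 RPKM in mixed WT. Of 10 endothelial genes only Tek was listed there, at 7.84 to 8.61 RPKM in cKO and 2.51 to 2.82 RPKM in mixed WT. Of 10 red cell genes Hba-a2, Hba-x and Ermap were listed, the first of which has a near-identical copy in Hba-a1, and their summed level was 87.7 to 147 RPKM in cKO and 411 to 551 RPKM in mixed WT. No marker of periocular mesenchyme or pigment cells was listed in these groups. The part of such cells in the Hes6 and Dlk1 differences was not tested.

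The same cKO libraries could be set against the inbred WT for Hes6, which exchanges the control and adds a difference of strain. Hes6 was at 23.4, 21.0 and 24.4 RPKM in cKO against 6.76, 7.13 and 7.43 RPKM in inbred WT, with no overlap between the groups. Hes6 was 3.23-fold higher in cKO (log2 difference 1.62 with SE 0.11, adjusted p = 2.70e-09 by limma). Of the 128 genes listed in all 9 libraries this comparison called 93.8%, with 32.8% higher and 60.9% lower in cKO. The libraries did not overlap for 93.8% of them, and for 32% with cKO the higher. All 128 are among the 190 genes chosen for a difference between cKO and mixed WT, so these shares are of a selected set. This comparison uses the same cKO libraries as the one with mixed WT and is not independent of it. Strain, floxed alleles, Cre and depth differ between these groups and cannot be told apart.

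Between the wild types Hes6 showed no difference beyond the spread. It was at 7.59, 7.60 and 6.85 RPKM in mixed WT and at 6.76, 7.13 and 7.43 RPKM in inbred WT, ranges that overlap. The log2 difference of mixed over inbred WT was 0.04 (SE 0.09, adjusted p = 0.684 by limma), and its sign turned under quantile normalization and median centring. In this comparison 49.2% of the 128 genes were called, 30.5% as higher and 18.8% as lower in mixed WT, and 57% did not overlap, 35.2% with mixed WT the higher. These 128 genes too were selected through their cKO and mixed WT values. A p above the threshold does not show equal levels. Dlk1 could not be set against inbred WT, where it was not listed, and its mixed WT level of at most 0.37 RPKM was below the 2 RPKM at which the inbred list began.

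The genes most like Hes6 over the 9 libraries were sought among the 128 by the root mean square distance between log2 profiles, each centred on its own mean. They were Btg2, an antiproliferative gene (distance 0.09), Tek, an endothelial receptor gene (0.13), Pgpep1 (0.13), Dusp6, a feedback inhibitor of MAPK signalling (0.14), and Fam132a (0.16), whereas the median gene was at 1.19. Btg2 was at 22.3 ± 0.85 RPKM in cKO, 6.80 ± 0.55 RPKM in mixed WT and 7.05 ± 0.74 RPKM in inbred WT (SD, n = 3 each), almost the levels of Hes6 itself. For Dlk1, over the 6 cKO and mixed WT libraries and 190 genes, they were the troponin gene Tnnt1 (0.21), the ubiquitin hydrolase gene Uchl1 (0.21), the semaphorin receptor gene Plxna2 (0.24), the phosphodiesterase gene Pde6b (0.28) and Enc1 (0.30), with the median gene at 1.28. Tnnt1 was at 10.1 ± 0.33 RPKM in cKO and 0.23 ± 0.09 RPKM in mixed WT (SD, n = 3 each), again near the levels of Dlk1. Profiles were of log2(RPKM + 0.5), which narrows differences from levels as low as that of Dlk1 in mixed WT. By ratio of mean RPKM Dlk1 rose 39.1 times, Tnnt1 44.2, Uchl1 14.1, Plxna2 26.7, Pde6b 49.6 and Enc1 17.0 times. Many genes of both lists were lower in cKO, which enlarges the distance of the median gene. These profiles share their libraries and the differences between the groups.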

How the data were processed

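Lens RNA of 9 libraries was sequenced. The submitters' processing notes name CASAVA 1.8.2, while the aligner, the build and the annotation were not given in the sources used here. For each gene and library the deposited values, per the file headers, are RPKM and a normalized expression score with no stated unit or method, with exon lengths in the inbred files. Symbols were stripped of spaces, and 24 rows with 12 repeated symbols were left out of each inbred table. Library depth was recovered as the step at which RPKM times exon length gave whole reads (100% of the low values used, within 0.1 reads). RPKM is not a count, so groups were compared with limma 3.58.1 under R 4.3.3. Values were log2(RPKM + 0.5), the prior variance followed the mean, genes averaging under 1 RPKM were left out, and p-values were adjusted by Benjamini-Hochberg over all genes tested, with a threshold of 0.05. Each comparison used the 6 libraries of its groups only. With 3 libraries against 3, the smallest p of an exact permutation test is 0.1. The fit was checked on simulated data with the same spread for every gene and, in some genes, changes balanced between rises and falls. That setting differs from a list in which every gene was chosen for a difference, so the check does not cover such a list. Intervals and counting errors cover counting only.

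The members and lists were chosen with earlier results of these data known. Named genes were the members, the listed genes of the Notch list by role, and the 5 genes nearest in profile to Hes6 and to Dlk1. Markers were counted from fixed lists. Alternatives were pseudocounts of 0.1 and 1, no filter and a mean of at least 2 RPKM, quantile normalization, median centring, the normalized values (pseudocount 10), limma without trend, a joint fit, the replicate block and each library left out. GENCODE M21 (GRCm38) served for overlaps of exons and shared words, and RefSeq for promoter windows. The build used by the submitters may be another. Tables were made with numpy 2.4.6 and pandas 2.3.3 under Python 3.11.15. Some genes of the lists are counted but not reported here by name.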

Additional observations from a re-analysis of the deposited data

How the results depend on the processing

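Across 131 alternative values of 12 results, 129 kept direction and side of the threshold (for counts, stayed within 1.5 times; for levels, within 1 SD). The exceptions were the Hes6 log2 fold change of mixed over inbred WT, which was -0.068 under quantile normalization (limma adjusted p = 0.376) and -0.10 under median centring (0.552) and was called under neither. The cause was not tested. For levels, leaving out a library cannot move a mean of 3 libraries by 1 SD, so those outcomes were fixed in advance. The genes compared between cKO and mixed WT were chosen for that difference, so their outcomes could hardly fail either. The count of 129 is therefore no measure of how firm the results are. With the replicate number as a block, Hes6 was at 1.58 and Dlk1 at 3.83 in cKO against mixed WT (limma adjusted p = 4.32e-15 and 6.02e-24), Hes6 at 1.62 in cKO against inbred WT and at 0.04 in mixed against inbred WT, and the block changed no call of these 2 genes. A block leaves few residual degrees of freedom per gene, so limma leans on the variance shared across genes. The smaller p-values are therefore no stronger support. The block kept 189 and 120 called genes in the cKO comparisons and gave 47 instead of 63 in mixed against inbred WT. The deviations of same-numbered libraries correlated across genes at -0.10, -0.11 and -0.15 in cKO and mixed WT, at -0.013, 0.239 and 0.201 in cKO and inbred WT, and at -0.524, -0.146 and -0.238 in mixed and inbred WT. As in no comparison every pair was above 0.1, the libraries were taken to share only a number. Leaving out each library kept the Hes6 log2 fold change between 1.53 and 1.64 and that of Dlk1 between 3.65 and 4.01 in cKO against mixed WT. The balance of calls between the wild types, 39 higher and 24 lower in mixed WT, came to 28 and 29 with quantile normalization, to 23 and 37 with median centring and to 65 and 18 in the normalized values. Depth limits Hes5, with at most 79 reads in a library, and Dlk1 in mixed WT.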

Other observations

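Dlk1 lies in an imprinted domain with the non-coding RNA genes Meg3 and Rian, which were looked at after the Dlk1 values were seen. Although Dlk1 was not in the inbred list, Meg3 was at 13.2, 9.57 and 10.4 RPKM and Rian at 17.3, 15 and 14.6 RPKM in inbred WT. Neither was among the 190 genes of the cKO and mixed WT tables. Hes proteins act through Groucho corepressors, and of 6 genes of the wider Groucho family 3 were listed in inbred WT. Tle3 was at 8.61 RPKM, Tle4 at 7.33 RPKM and the related gene Aes at 134 ± 2.16 RPKM (SD, n = 3). Whether their products act with Hes proteins in the lens was not tested. Of 6 genes of cell cycle exit and entry 5 were listed, led by the cyclin-dependent kinase inhibitor gene Cdkn1c at 610 ± 21.1 RPKM (SD, n = 3), with Ccnd1 and Ccnd2 at 52.6 and 101 RPKM. None of these was listed in the other groups.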
